A study of Mus musculus with 12 samples.

Results

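The immediate early genes examined here were Fos, Fosb, Jun, Junb, Egr1, Ier2, Dusp1, Zfp36, Atf3 and Nr4a1, 10 of the 24910 genes to which the deposited RNA-seq table could be assigned. They were chosen by name, with their levels in these same mice known, so their RNA levels and the FAIRE peaks at their starts are described without a test. RNA-seq and FAIRE-seq were carried out on livers of male C57BL/6J wild-type mice, 2 per group. FAIRE-seq recovers DNA that formaldehyde has not crosslinked to nucleosomes and so marks accessible chromatin. By the study's methods, both assays used the same 2 livers of each group. Control (Ctl) mice ate chow for 28 weeks and had no operation. Sham and VSG mice received a diet with 60% of its calories from fat, from 8 weeks of age, for 14 weeks before surgery and again for 14 weeks after it. In vertical sleeve gastrectomy (VSG) about 80% of the stomach was removed, whereas in the Sham operation the stomach was exposed and pressed with forceps, and both surgical groups took liquid food for the first 4 days. The Sham and VSG mice thus shared the diet and an operation, and the Ctl mice shared neither. Because whole liver was sequenced, fewer cells of a type and less RNA per cell cannot be told apart, and with 2 mice per group an exact permutation test of a single value cannot give a p below 0.333.

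Immediate early genes are transcribed within minutes of a stimulus from factors already present in the cell, without new protein synthesis, and their short-lived transcripts decline soon afterwards. Fos, Fosb, Jun, Junb and Atf3 encode basic leucine zipper proteins that form the dimers of the AP-1 and ATF families, Egr1 and Nr4a1 encode a zinc finger factor and an orphan nuclear receptor, and Dusp1 and Zfp36 encode a MAP kinase phosphatase and an mRNA decay factor that limit the response. In liver these genes are known for their response to partial hepatectomy, handling stress, cytokines and feeding.

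The promoters of Fos and Fosb are shown because both genes were highest in the same VSG mouse and both have a CArG box, the element bound by serum response factor. Those of Dusp1 and Nr4a1 are shown because these were the members whose FPKM, as listed, did not peak in that mouse. The distal Fos region is shown because it belongs to a deposited list of variable sites. Capitals mark the CArG box, the cAMP response element (CRE, TGACGTCA), its core TGACG or the reverse complement CGTCA, and the EGR site GCGGGGGCG on either strand. The CRE contains the core on both strands, so that its cores overlap it.
Fos promoter (mm9 chr12:86814500-86814799, plus strand): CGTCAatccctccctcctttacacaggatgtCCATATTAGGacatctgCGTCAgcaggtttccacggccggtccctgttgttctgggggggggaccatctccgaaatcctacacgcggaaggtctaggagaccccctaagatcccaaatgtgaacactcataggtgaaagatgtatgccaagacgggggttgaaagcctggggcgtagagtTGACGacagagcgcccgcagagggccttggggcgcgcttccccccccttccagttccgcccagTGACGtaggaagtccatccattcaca
Fosb promoter (mm9 chr7:19895435-19895734, minus strand): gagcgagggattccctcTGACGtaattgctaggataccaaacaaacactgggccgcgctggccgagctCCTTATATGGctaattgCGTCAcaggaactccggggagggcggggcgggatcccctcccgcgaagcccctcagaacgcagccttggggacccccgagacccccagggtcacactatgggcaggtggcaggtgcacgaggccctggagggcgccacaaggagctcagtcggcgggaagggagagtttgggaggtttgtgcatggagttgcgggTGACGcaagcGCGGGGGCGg
Dusp1 promoter (mm9 chr17:26645465-26645714, minus strand): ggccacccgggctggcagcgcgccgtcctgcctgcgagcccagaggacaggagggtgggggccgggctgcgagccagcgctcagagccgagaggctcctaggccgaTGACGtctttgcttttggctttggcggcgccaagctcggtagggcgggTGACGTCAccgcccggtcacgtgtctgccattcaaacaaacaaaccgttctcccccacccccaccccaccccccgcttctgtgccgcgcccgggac
Nr4a1 promoter (mm9 chr15:101097027-101097276, plus strand): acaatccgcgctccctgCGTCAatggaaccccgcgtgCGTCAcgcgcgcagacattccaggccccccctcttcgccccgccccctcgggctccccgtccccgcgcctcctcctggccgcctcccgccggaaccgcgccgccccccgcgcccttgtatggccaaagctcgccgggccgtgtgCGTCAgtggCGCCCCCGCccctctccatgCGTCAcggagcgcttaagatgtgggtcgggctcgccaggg
Fos upstream site (mm9 chr12:86813045-86813344, plus strand): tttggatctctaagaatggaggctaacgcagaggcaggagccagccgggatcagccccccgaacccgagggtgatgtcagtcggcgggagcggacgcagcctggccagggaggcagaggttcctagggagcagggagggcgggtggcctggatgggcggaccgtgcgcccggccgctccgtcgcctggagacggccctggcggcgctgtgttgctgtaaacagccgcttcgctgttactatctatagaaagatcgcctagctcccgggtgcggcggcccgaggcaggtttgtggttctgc

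The CArG box lay at -309 to -300 relative to the annotated start of Fos and at -272 to -263 relative to that of Fosb. The Dusp1 promoter held a CRE at -96 to -89, and the Nr4a1 promoter held 4 CRE cores and an EGR site at -60 to -52. None of these motifs occurred in the 300 bases around the summit of the distal Fos region.

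Fos (NM_010234), the AP-1 subunit that pairs with Jun proteins, had FPKM values of 2.65 and 0.605 in the Ctl mice, 0.966 and 1.71 in Sham and 71.6 and 2.72 in VSG. FPKM is fragments per kilobase of transcript, scaled to the mapped fragments of each library, so levels can be set side by side between genes. By FPKM, Fos was 26.4 times as high in VSG mouse 1 as in VSG mouse 2, the next highest mouse. The other 5 mice lay between 0.605 and 2.72. Over the Ctl and Sham libraries its mean FPKM was 1.482 and the authors' mean normalised count 68.46. Over the Sham and VSG libraries these were 19.24 and 477, so that the count rose by a smaller factor than FPKM. Both VSG mice lay above both Sham mice, and above both Ctl mice, but VSG mouse 2, at 2.72, exceeded Ctl mouse 1, at 2.65, by less than the spread within any group. On the log2(FPKM + 1) scale VSG exceeded Sham by 2.83 (SE 1.43, n = 2 mice per group). With VSG mouse 1 alone this difference was 4.98 and with VSG mouse 2 alone 0.69.

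Fosb (NM_008036), a close relative of Fos, was listed at 0.0592 and 0.0118 FPKM in Ctl, 0.0292 and 0.0506 in Sham and 5.89 and 0.322 in VSG. Its values were whole multiples of the smallest of them once scaled to depth, with distances from a whole number of at most 0.00049, and corresponded to 6, 1, 2, 6, 930 and 30 fragments in the same order. The 4 mice without VSG thus rested on 1 to 6 fragments, and Fosb did not pass the filter of at least 1 FPKM in at least 2 mice. VSG mouse 1 was 18.3 times VSG mouse 2. The log2(FPKM + 1) difference between VSG and Sham was 1.54, with 2.73 for VSG mouse 1 alone and 0.35 for VSG mouse 2 alone.

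Jun (NM_010591), the founding AP-1 subunit, stood at 13.0 and 18.2 FPKM in the Ctl mice, 7.06 and 13.9 in Sham and 74.4 and 18.2 in VSG. VSG mouse 2 was at the level of Ctl mouse 2, so that VSG overlapped Ctl but not Sham. The log2 difference was 1.80 (SE 0.72) between VSG and Sham and 1.21 (SE 0.72) between VSG and Ctl.

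Junb (NM_008416), an AP-1 subunit that can oppose Jun, gave 62.8 and 30.2 FPKM in the Ctl mice, 31.8 and 37.1 in Sham and 69.8 and 14.7 in VSG. Its highest and its lowest value were both in the VSG group. The log2 difference between VSG and Sham was -0.08 (SE 0.79), and it was 1.0 with VSG mouse 1 alone and -1.17 with VSG mouse 2 alone.

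Atf3 (NM_007498), a stress-induced bZIP repressor, was low in 5 mice, with 0.855 and 1.65 FPKM in Ctl, 0.912 and 1.35 in Sham and 1.25 in VSG mouse 2, and stood at 7.99 in VSG mouse 1. VSG mouse 1 was 6.37 times VSG mouse 2, and the other 5 mice overlapped across groups. VSG mouse 2 alone differed from Sham by 0.09 on the log2 scale, against 2.08 for VSG mouse 1 alone.

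Egr1 (NM_007913), which binds the GC-rich EGR site, had 17.4 and 7.56 FPKM in the Ctl mice, 24.2 and 30.9 in Sham and 38.5 and 5.92 in VSG. Both Sham mice were above both Ctl mice, by 1.17 (SE 0.89) on the log2 scale. Like Junb, it was highest in VSG mouse 1 and lowest in VSG mouse 2, which were 6.5-fold apart. The VSG minus Sham difference was -0.78 (SE 0.89), with 0.48 for VSG mouse 1 alone and -2.04 for VSG mouse 2 alone.

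Ier2 (NM_010499), a small nuclear protein of the early growth response, was even across 5 mice, with 15.1 and 10.7 FPKM in Ctl, 15.5 and 13.7 in Sham and 14.4 in VSG mouse 2. It reached 53.0 in VSG mouse 1. The VSG minus Sham difference of 0.89 (SE 0.62) was -0.01 with VSG mouse 2 alone.

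Zfp36 (NM_011756), which encodes tristetraprolin and destabilises AU-rich mRNAs, was the most abundant member in VSG mouse 1. It stood at 63.7 and 35.3 FPKM in the Ctl mice, 48.8 and 38.3 in Sham and 150 and 69.5 in VSG. Both VSG mice lay above the other 4, so that it overlapped neither comparison group. The log2 difference was 1.22 (SE 0.49) from Sham and 1.09 (SE 0.49) from Ctl.

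Dusp1 (NM_013642), the phosphatase that inactivates p38 and JNK, followed another order. Its FPKM was 26.5 and 17.1 in the Ctl mice, 8.34 and 4.06 in Sham and 25.9 and 20.4 in VSG. Both Sham mice were below all 4 others, and the VSG mice lay within the range of the Ctl mice. Sham was below Ctl by a log2 difference of -1.70 (SE 0.40), and VSG was above Sham by 1.81 (SE 0.40). VSG mouse 1 and VSG mouse 2 gave 1.97 and 1.64, so that this difference was shared by both mice. Between VSG and Ctl the difference was 0.11 (SE 0.40), which became -0.08 after scaling by the median ratio.

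**Figure D1:**
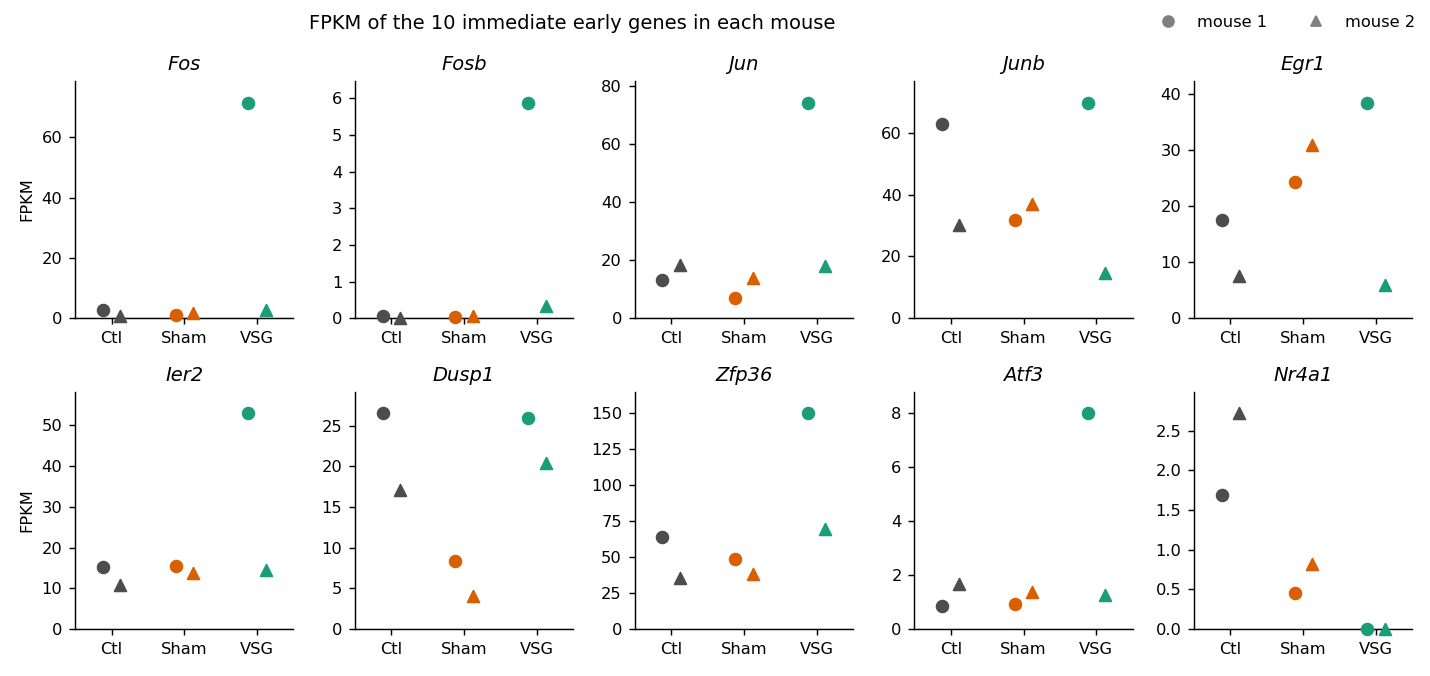
FPKM of each immediate early gene in the 6 mice (linear axes from 0, 1 panel per gene; circles, mouse 1; triangles, mouse 2; no error bars, since every mouse is drawn). In 8 of the 10 panels the highest point is VSG mouse 1, the Sham points of Dusp1 are the lowest, and Nr4a1 is listed at 0 in both VSG mice.

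Nr4a1 (NM_010444), the receptor also called Nur77, had 1.69 and 2.72 FPKM in the Ctl mice and 0.448 and 0.822 in the Sham mice, and was listed at 0 in both VSG mice. The authors' mean normalised count of this transcript was nevertheless 84.85 over the 4 Ctl and Sham libraries and 166.8 over the 4 Sham and VSG libraries. Mean counts and FPKM values were compared as a ratio, the count per FPKM in the second set over that in the first. For Nr4a1 it was 8.797, and 5 of 9122 transcripts, Nr4a1 included, had a ratio at least as high (median 1.13, 5th to 95th percentile 0.81 to 1.71). The listed zeros were therefore not taken as absence of Nr4a1 fragments, and no fold against VSG is given. In the Sham and VSG set 760 of 9877 transcripts were at 0 in both VSG mice. The other members with both counts ranged from 0.5366 for Fos to 1.22 for Dusp1, and Fos, Jun (0.7205) and Zfp36 (0.8084) lay below the 5th percentile. For Fos, Jun and Zfp36 the count thus rose by a smaller factor than FPKM from the first set to the second. Their folds and differences are given from FPKM alone, and the cause was not tested.

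**Figure D2:**
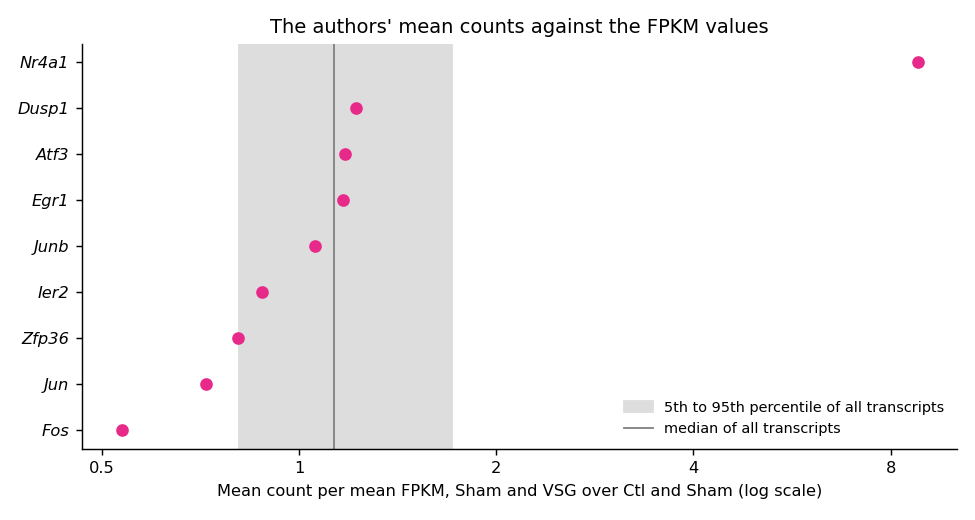
Mean count per mean FPKM in the Sham and VSG libraries divided by that in the Ctl and Sham libraries (horizontal axis, log scale), for the 9 members with both counts. The grey band spans the 5th to 95th percentile of 9122 transcripts and the line their median of 1.13; Nr4a1 stands at 8.797, outside the band.

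Across the members, 8 of 10 were highest in VSG mouse 1, as were 16.1% of the 9869 genes that passed the filter. Dusp1 peaked in Ctl mouse 1. Nr4a1 peaked in Ctl mouse 2 only as listed, since its zeros in VSG were not taken as absence. VSG mouse 1 exceeded VSG mouse 2 by at least 1 on the log2 scale in 8 of 10 members (5.99% of all genes tested), and exceeded every other mouse by that margin in 6, namely Fos, Fosb, Jun, Ier2, Zfp36 and Atf3 (0.243% of all genes). Ctl mouse 1 exceeded Ctl mouse 2 by that margin in 3 members (4.46%) and Sham mouse 1 exceeded Sham mouse 2 in 0 (10.2%). Fosb did not pass the filter that the genes of these shares passed. Among the 9 members that did, the counts for VSG mouse 1 were 7, 7 and 5 in the same order. The members were chosen with these levels known, so nothing is read from these shares. The median VSG minus Sham difference of the 10 members was 1.15, beside 0.08 over all genes tested, and leaving out VSG mouse 1 gave 0.22 and leaving out VSG mouse 2 gave 1.88. The median VSG minus Ctl difference was 1.05 (all genes 0.13), with 0.10 without VSG mouse 1, and the median Sham minus Ctl difference was -0.10 (all genes 0.04). The medians against VSG took in Nr4a1 with its listed zeros. Without Nr4a1 they were 1.22 for VSG minus Sham and 1.07 for VSG minus Ctl.

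**Figure D3:**
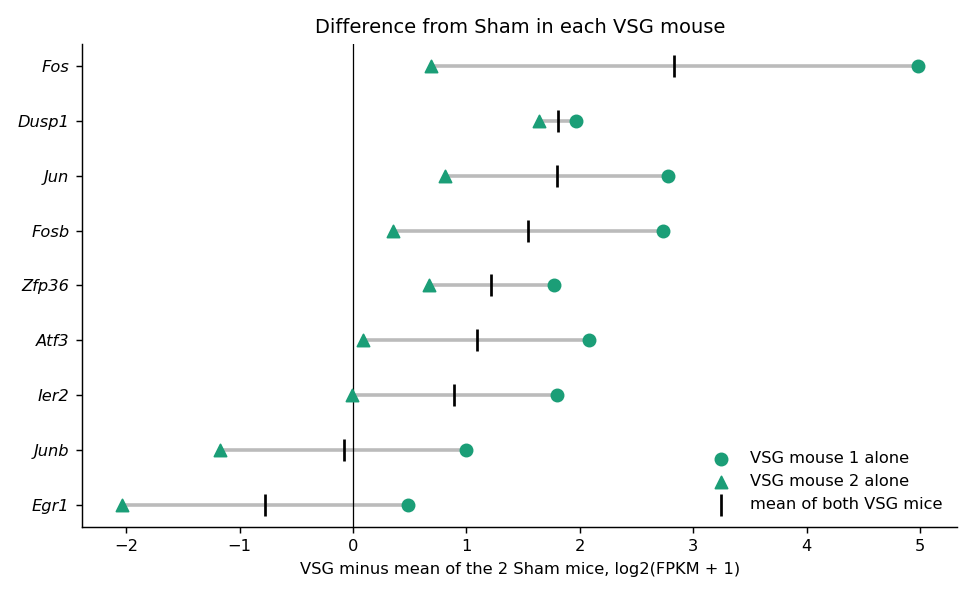
Difference from the mean of the 2 Sham mice on the log2(FPKM + 1) scale for 9 members (Nr4a1 left out, listed at 0 in VSG): circles, VSG mouse 1 alone; triangles, VSG mouse 2 alone; bars, mean of both. The span is 4.98 to 0.69 for Fos and 1.97 to 1.64 for Dusp1, and it crosses 0 for Ier2, Junb and Egr1.

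The limma fit covered all genes that passed the filter, 9 members among them, Nr4a1 with its listed zeros. None of the 9 passed an FDR of 10% with Benjamini-Hochberg adjustment in any comparison. They were chosen with their levels known, so this is no test of them. Of all 9869 genes 0.284% were called between Sham and Ctl, 0.0507% between VSG and Sham and 0.284% between VSG and Ctl. Both VSG mice lay above both Sham mice in 5 members, Fos, Fosb, Jun, Dusp1 and Zfp36 (18.5% of genes tested), and below them in Nr4a1 as listed (9.78%). For VSG against Ctl the groups did not overlap in Fos, Fosb and Zfp36, higher in VSG (33.7%), and in Nr4a1 as listed (14.8%). For Sham against Ctl this held for Egr1, higher in Sham (25.4%), and for Dusp1 and Nr4a1, lower in Sham (20.4%). Among the 9 members that passed the filter, which leaves out Fosb, 4 were higher in VSG without overlap against Sham and 2 against Ctl. Since the rule used these contrasts, nothing is read from the counts, and comparisons that share a group share its mice.

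The depth of VSG mouse 1 was the highest of the 6, at 1.56 relative to Ctl mouse 1, against 0.676 to 1.17 in the other mice, as judged from the spacing of low FPKM values. Markers of several other cell types were highest in VSG mouse 2 instead. The summed FPKM of 7 Kupffer cell markers (Clec4f and others) was 148 in VSG mouse 2, 37.2 in VSG mouse 1 and 11.9 to 38.8 elsewhere, with 5 of the 7 highest in VSG mouse 2. All 6 T and B cell markers and 6 of 7 stellate cell markers were also highest in VSG mouse 2. The T and B cell markers were low, at most 0.887 FPKM (Cd79a) in any mouse. The stellate marker Des stood at 0.75 FPKM in VSG mouse 2 and 0.737 in Sham mouse 2. The share of all genes highest in VSG mouse 2 was not computed. Of 4 red blood cell markers, of which Hba-a2 was at 0 throughout, 3 were highest there, with a summed FPKM of 1420 against 353 in VSG mouse 1 and 120 to 307 elsewhere. Neutrophil markers summed to 42.2 and 46.5 in the Sham mice and to between 5.37 and 22 in the others, with Ly6g at 0 in all. Both Sham mice lay below all 4 others in 5 of 7 stellate cell markers and in 3 of 7 sinusoidal endothelial markers. The same held for 2 of 4 hepatocyte markers, Tat and Cps1, and for 0 markers of the other cell types. The share of all genes with this order was not computed, so nothing is read from these counts. Sham lay below Ctl without overlap in 20.4% of genes tested, and VSG above Sham in 18.5%. Some margins were narrow, as for Rgs5, at 1.89 and 1.79 FPKM in Sham and 1.92 in Ctl mouse 1. Clec4g stood at 3.93 FPKM in Sham mouse 1 and 4.35 in Ctl mouse 2. The summed endothelial level was 8.71 and 6.4 in the Sham mice against 21.6 to 45.9 in the others, with Clec4g contributing most, and 4 of the 7 endothelial markers were listed at 0 in at least 1 mouse. Cholangiocyte markers summed to 186 in Sham mouse 1, 145 in VSG mouse 1 and 30.7 to 62.9 in the others, nearly all of it Spp1 (183 in Sham mouse 1 and 143 in VSG mouse 1). Krt7, Krt19 and Epcam were lowest in Sham mouse 1, and 3 of the 6 cholangiocyte markers were highest in Ctl mouse 1. The 4 hepatocyte markers in the table summed to between 8470 and 16700, so that the tissue matched its label. The part of cell composition or depth in the levels of the members was not tested.

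A list of 61 other genes of the immediate and delayed early response was examined, and 47 of them passed the filter. Of these 7 were highest in VSG mouse 1 and 1 exceeded every other mouse by at least 1 on the log2 scale, beside 16.1% and 0.243% of all genes. VSG mouse 1 exceeded VSG mouse 2 by that margin in 8 of the 47 and was exceeded by VSG mouse 2 in 6. By limma 0 of the 47 were called at an FDR of 10% in each comparison, and 6, 4 and 9 had an unadjusted p under 0.05 for Sham minus Ctl, VSG minus Sham and VSG minus Ctl, beside 10.9%, 4.85% and 9.56% of all genes tested. Their median difference was -0.41, -0.06 and -0.42 in the same order, with 35, 25 and 34 of the 47 genes lower in the first group, beside 47.1%, 40.3% and 38.6% of all genes.

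**Figure D4:**
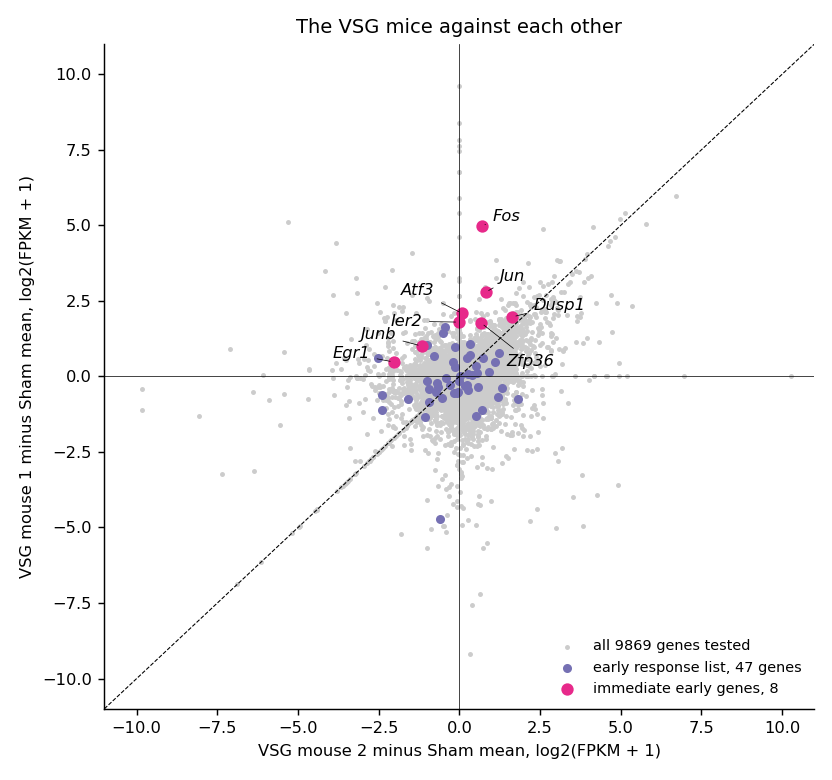
Difference of VSG mouse 1 (vertical axis) and VSG mouse 2 (horizontal axis) from the mean of the Sham mice, log2(FPKM + 1), for all 9869 genes tested (grey), 47 early response genes (purple) and 8 members (pink; Fosb did not pass the filter and Nr4a1 is listed at 0). The dashed line marks equal differences; all 8 members lie above it, with Fos at 4.98 against 0.69.

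Between VSG and Sham, the early response genes with the largest differences and no overlap were Sgk1, a kinase induced by glucocorticoids, at 1.0 (SE 0.50), Klf2 at 0.78 (SE 0.37) and Dusp6, the ERK phosphatase, at 0.67 (SE 0.19). Lower in VSG were Plk3 at -2.65 (SE 1.36), listed at 0 in VSG mouse 1 and at -0.59 without that mouse, Socs3, the inhibitor of cytokine signalling, at -1.75 (SE 0.54), and Id3 at -1.52 (SE 0.63). Socs3 stood at 18.6 and 31.8 FPKM in Sham and 10.8 and 3.79 in VSG. Dusp6 stood at 18.4 and 17.5 FPKM in Sham and 27.8 and 30.8 in VSG. These 6 genes had adjusted p-values of 0.942 to 0.944 by limma.

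Between Sham and Ctl, Ier3 (1.80, SE 0.93), Ier5 (1.15, SE 0.29) and Gadd45a (1.06, SE 0.71) had the largest differences without overlap above Ctl, and Ier3 reached 18.8 FPKM in Sham mouse 2 against 1.77 in Sham mouse 1. Gadd45g, a growth arrest and DNA damage response gene, had the largest below it, at -2.55 (SE 0.55), with 159 and 152 FPKM in the Ctl mice and 15.3 and 42.5 in the Sham mice. Plk3 (-1.79, SE 1.36) and the clock gene Per1 (-1.75, SE 1.0) followed, and Per1 was listed at 0 in Sham mouse 2, without which its difference was -0.99. Gadd45g in the VSG mice was at 14.7 and 7.89 FPKM, a difference from Ctl of -3.73 (SE 0.55), with an adjusted p of 0.28 for Sham and 0.197 for VSG by limma. Plk3 (-4.44, SE 1.36, and -2.38 without VSG mouse 1, where it is listed at 0) and Id3 (-2.05, SE 0.63) were also below Ctl in VSG, and Ccn1 (1.29, SE 0.66), Dusp6 (1.05, SE 0.19) and Hes1 (0.93, SE 0.38) above it.

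The signalling molecules upstream of the members (25 genes, 20 tested), their AP-1 and EGR partners (12 genes, 8 tested) and heat shock genes (10, all tested) had 0 genes called by limma in each comparison, with 0, 1 and 0 at an unadjusted p under 0.05 between VSG and Sham (4.85% of all genes). Median differences between VSG and Sham were 0.08, 0.04 and -0.04. Srf, which encodes the factor that binds the CArG box, stood at 1.81 and 2.20 FPKM in Sham and 2.81 and 2.22 in VSG, a difference of 0.23 (SE 0.24). Mrtfb, a coactivator of Srf, was lower by -0.95 (SE 0.55), as was the kinase Rps6ka4 by -0.46 (SE 0.24). Among partners Maf (0.51, SE 0.24) was higher, and Atf4 (-0.43, SE 0.25) and Nab2, an Egr1 corepressor (-0.43, SE 0.41), were lower in VSG. Hsp90aa1 (-0.65, SE 0.30) and Hspa5 (-0.65, SE 0.39) were lower, and 0 of the 10 heat shock genes were highest in VSG mouse 1.

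The genes most like the members were sought by Pearson correlation, over the 6 mice, of log2(FPKM + 1) with the mean standardised profile of the members. That profile took in all members, Fosb and Nr4a1 with its listed zeros included, and no ranking without them was made. It was 1.37 in VSG mouse 1 and between -0.43 and 0.09 in the other 5 mice. The highest were Vps29 (r = 0.970), Zc3hc1 (0.969), Uxt (0.956), Nsfl1c (0.955), Jund (0.941), Aspscr1 (0.938), Tmem208 (0.937) and Elp5 (0.933), and 23 of 9860 genes had an r of at least 0.9. Jund, the remaining Jun family subunit of AP-1, stood at 26.5 and 28.5 FPKM in the Ctl mice, 21.9 and 27.8 in Sham and 49.7 and 22.3 in VSG. Without VSG mouse 1 the r of the 8 genes ranged from -0.03 (Aspscr1) to 0.92 (Uxt), with 0.47 for Jund and 0.80 for Vps29. Without the 2 mice farthest from the median it ranged from -0.51 (Zc3hc1) to 0.96 (Jund), with -0.15 for Vps29. Of the 8 genes, 5 were again among the first 8 with a pseudocount of 0.1, and 0 with Spearman's correlation.

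In the FAIRE lists all 10 members had a peak within 1000 bp of the annotated start in Ctl, Sham and VSG mice, beside 48.3%, 48.1% and 49.6% of 22367 protein-coding gene starts. Each list pools 2 mice through IDR, so that no value per mouse, and no error, was at hand. A peak covered the start itself in 9 members. Fosb was the exception, whose upstream peak ended at -170 bp in Ctl mice and at -140 bp in Sham and VSG mice. F-seq signal was used only as a percentile among the peaks of its own list, since no scaling between lists was given. In each list 9 of the 10 members had a peak at or above the 80th percentile, beside 56.5%, 53.9% and 59.9% of all starts with a peak in Ctl, Sham and VSG mice. Junb was the highest, at percentiles of 99.9, 99.7 and 99.8, followed in VSG by Jun at 99.2 and Fosb at 98.9. The peak of Fos stood at 86.1, 81.4 and 89.5, and that of Dusp1, whose RNA was lowest in Sham, at 93.5, 94.2 and 94.8.

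Nr4a1 was the member below the 80th percentile, with a peak over its start at percentiles of 52.7 in Ctl, 36.8 in Sham and 71.3 in VSG mice. The peak measured 898, 802 and 1329 bp in these lists. In VSG mice it spanned mm9 chr15:101096471-101097799, from -806 to 522 bp around the start, which takes in the promoter sequence shown above. The same interval was among the 414 sites that the authors listed as more accessible in VSG than in Sham mice, and among the 175 of the authors' reversible list, less accessible in Sham. Starts with such a site within 1000 bp made up 1.03% and 0.434% of all starts. The start of Nr4a1 was thus listed as more accessible in VSG, where the FPKM was listed at 0 and the mean count of Sham and VSG libraries was above that of Ctl and Sham libraries.

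Within 5000 bp, Fos and Jun also had a site more accessible in VSG than in Sham mice, which made 3 of 10 members beside 1.29% of all starts. The Fos site lay at mm9 chr12:86812911-86813768, from -1929 to -1072 bp, upstream of the gene, and was also in the reversible list less accessible in Sham, which made 2 members, Fos and Nr4a1, beside 0.559% of all starts. Peaks of all 3 lists overlapped it, at percentiles of 80.5 in Ctl, 43.5 in Sham and 79.4 in VSG mice. The Jun site lay at mm9 chr4:94715410-94715636, from 3277 to 3503 bp after the start and beyond the annotated end of the gene, 3189 bp long. A peak was found there in VSG mice only, 227 bp long and at a percentile of 38.3. None of the 99 sites more accessible in Sham than in VSG mice lay within 5000 bp of a member (0.0626% of all starts). The authors' lists were made from read counts of the same livers and hold positions without values, so the size of these differences was not analysed here.

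**Figure D5:**
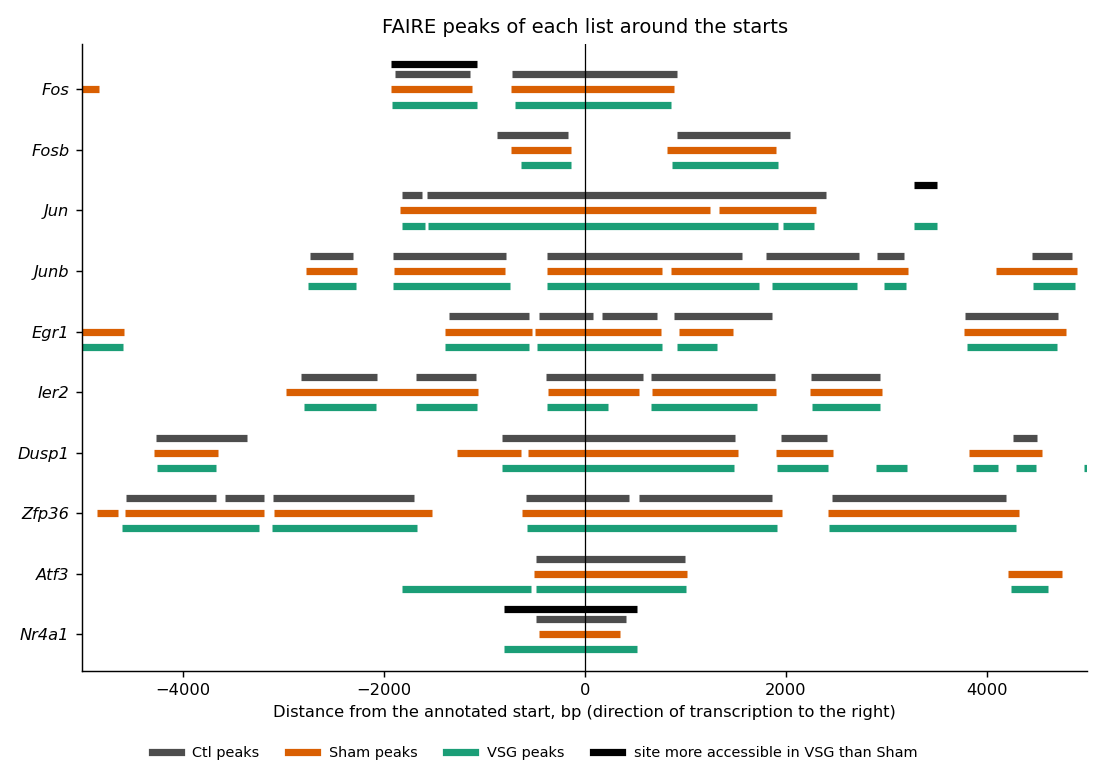
FAIRE peaks of the Ctl (grey), Sham (orange) and VSG (green) lists within 5000 bp of the start of each member, by distance in bp with transcription to the right; black bars are sites listed as more accessible in VSG than in Sham. Every member has a peak in each list near 0, and black bars appear at Fos, Jun and Nr4a1.

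The RefSeq promoter table (GRCm38.p6) matched 8 of the 10 members, all but Egr1 and Ier2, and motifs were counted on both strands from 250 bases before to 50 after the start. The CRE core TGACG occurred in 6 of the 8 (Fos, Fosb, Junb, Dusp1, Atf3 and Nr4a1), beside 20.8% of 32851 promoters. The EGR site GCGGGGGCG occurred in Fosb, Zfp36 and Nr4a1 (2.91% of promoters), the CRE TGACGTCA in Dusp1 (1.79%) and the CArG box in Zfp36 (1.63%). The AP-1 site TGAGTCA was in 0 of the 8 (5.2%), the STAT site TTCNNNGAA in Zfp36 (8.3%) and TATAAA in Fos and Junb (13.6%). In the wider mm9 window from 1000 bases before to 50 after the start, 3 of 8 members (Fos, Fosb and Zfp36) held a CArG box, beside 5.76% of 21850 windows, and the AP-1 site was again in 0 (15.3%). Dusp1, Jun, Junb, Atf3 and Nr4a1 had no CArG box of these letters in that window. The 3 members with a CArG box were highest in VSG mouse 1, as were Jun, Junb and Atf3, which had none.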

How the data were processed

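RNA-seq and FAIRE-seq of 12 liver samples were analysed from the deposited tables, with the same 2 livers per group in both assays by the study's methods. Cufflinks was used by the authors to obtain FPKM values per RefSeq transcript and mouse, after alignment of 50-bp reads to mm9 with TopHat2. The labels give poly(A) enrichment, the study's methods depletion of ribosomal RNA. FAIRE reads were aligned to mm9 with Bowtie, and the deposited peaks carry an F-seq signal and were those that passed IDR between both mice of the group, and the lists of variable sites were made by the authors with DESeq2 on read counts. The mean normalised counts in the deposited comparison tables are the authors' HTSeq counts divided by DESeq2 size factors, averaged over 4 libraries. Fold changes and p-values of those tables were not used.

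FPKM was summed per gene with RefSeq identifiers (GRCm38.p6 table, names only), which matched 34042 of 34933 transcripts. Genes that reached an FPKM of 1 in 2 or more mice were fitted on log2(FPKM + 1) with limma 3.58.1 (R 4.3.3, moderated variance with a trend, all 6 mice, no block). In simulated data 200 genes were changed between VSG and Sham, alike in both VSG mice and by at least 2 on the log2 scale. The fit recovered 129 of them and called 19 unchanged genes. Smaller changes, and changes in 1 VSG mouse only, were not simulated. Adjusted p-values follow Benjamini-Hochberg at an FDR of 10%. Depth in reads is unknown, and relative depth came from the spacing of FPKM under 0.3. Of the genes tested 16% were listed at 0 in at least 1 mouse. Starts came from the NCBIM37 (mm9) annotation. RefSeq promoters and mm9 sequence were searched for motifs, leaving out chromosome 18. The start differs between the annotations for Junb, Dusp1, Zfp36 and Atf3, and printed positions are those of mm9. Other steps used Python 3.11.15, pandas 2.3.3, scipy 1.17.1 and matplotlib 3.10.9.

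The members, gene lists, motifs and tests were chosen with earlier results of these data known. Named were the 10 members and, from the early response list, every called gene and the 3 genes with the largest difference in each direction of each comparison among those whose groups did not overlap. From the upstream, partner and heat shock lists the 2 largest in each direction between VSG and Sham were named, and 8 genes by likeness. Of the genes this rule names, 2 are not reported here. Alternatives were another pseudocount, no filter, other scalings, a replicate block, leaving out each mouse, other peak windows and another promoter length. The genes above 0 in all mice, the members without Nr4a1, and Plk3 and Per1 without a mouse listed at 0, were added after seeing the data.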

Additional observations from a re-analysis of the deposited data

Results flagged for a closer look

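Nr4a1 was singled out because reads appear in data outside the FPKM values: its mean normalised count over the 4 Sham and VSG libraries was 167, above the 84.85 over the 4 Ctl and Sham libraries, although its FPKM was listed at 0 in both VSG mice.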

How the results depend on the processing

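No member was called at an FDR of 10% under the settings that kept both mice of each group compared. The members were chosen with their levels known, so this is no test of them. Of 120 member differences with 1 mouse left out 20 changed sign, against 1 of 150 under the other settings, Dusp1 between VSG and Ctl with median ratio scaling. Without VSG mouse 1 the median difference of the members was 0.22 between VSG and Sham and 0.10 between VSG and Ctl, and with any single mouse left out it ranged from 0.22 to 1.88, from 0.10 to 1.81 and, between Sham and Ctl, from -0.45 to 0.11. Scaling by the median ratio moved the median of all genes from 0.13 to -0.04 between VSG and Ctl. Genes called numbered 28 between Sham and Ctl, 5 between VSG and Sham and 28 between VSG and Ctl. With the replicate block these counts were 9, 0 and 10. Over all genes tested, same-numbered mice deviated together with r of 0.12 (Ctl and Sham), 0.06 (Ctl and VSG) and 0.04 (Sham and VSG). Whether the numbers pair mice for part of the genes was not tested. With genes above 0 in all mice the counts were 8, 0 and 2, without the filter 64 between Sham and Ctl, with 2 groups alone 17 and 0 for the first and second, and for VSG and Sham 8 with a pseudocount of 0.1 and 9 by transcript. With 1 mouse left out the counts ranged from 0 to 157, from 0 to 50 and from 0 to 34, reaching 157 and 50 without Sham mouse 2 and 0 in each comparison without either Ctl mouse; the cause was not tested. For the early response list 0 were called, except 1 (Ier3) between Sham and Ctl without Sham mouse 1, a range of 0 to 1. In the longer promoter window the CArG box was in 3 of 8 members, the STAT site in 2 and TATAAA in 4, beside 5.76%, 28.6% and 46.6% of all windows. FPKM without read depth limits the low genes, above all Fosb.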
